A study of Mus musculus with 15 samples.

Results

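The integrins, the selectins and other adhesion molecules, and the surface genes with a CD name made up 39 of the 754 genes measured in 15 samples of mouse bone marrow-derived macrophages. Members were taken by symbol. A gene was included when its name began with Cd and a digit, or with Itg, Icam, Vcam, Sel or Pecam, and Cd34, Cd74, Cd83 and Cd86 were left out. The members were 8 integrins, 25 CD-named genes and 6 selectins and adhesion molecules. Macrophages were grown from femoral marrow with M-CSF. The MPLA group was held for 4 days with 20 ng/mL monophosphoryl lipid A, a Toll-like receptor 4 agonist, as the inflammatory (M1-like) standard, and the IL4 group for 4 days with 20 ng/mL interleukin-4 as the suppressive (M2-like) standard. The IRF5-NP and eGFP-NP groups were IL4-conditioned cells given 1 µg of nanoparticles for 1 hour per the labels (the methods give another amount of mRNA for the sorted cells), so both also carried the IL4 exposure. Per the methods, the IRF5 particles held mRNA for the transcription factor IRF5 and its kinase IKKβ plus an eGFP reporter mRNA, whereas the eGFP particles held the reporter alone. The methods also state that nanoparticle-treated cells were sorted for reporter signal and then returned to a medium with less IL4. This is not stated for the MPLA and IL4 groups, so particle, sort and medium cannot be told apart in any comparison with those groups.

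Integrins are heterodimers of an alpha and a beta chain that tie cells to matrix or to other cells. Itgb2 encodes CD18, which pairs on leukocytes with CD11a (Itgal, forming LFA-1), CD11b (Itgam, forming Mac-1) or CD11c (Itgax). Itgb7 pairs with the alpha 4 chain (Itga4), and Itgb1 with many alpha chains, including the fibronectin receptor chain Itga5. ICAM-1 is a ligand of LFA-1 and Mac-1, and VCAM-1 a ligand of the alpha 4 integrins. Selplg encodes PSGL-1, the ligand by which leukocytes roll on selectins. The CD numbers are only a naming scheme for surface antigens, so the CD-named members range from pattern recognition and scavenger receptors of macrophages to costimulatory ligands and antigens better known from lymphocytes.

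The measurements were hybridisation counts of a NanoString panel, in which each colour-coded probe pair is counted without amplification. The 15 samples had total gene counts of 266169 (IRF5-NP 4) to 1784833. The samples eGFP-NP 1 and eGFP-NP 2 differed by less than the sampling noise (chi-square per degree of freedom 1.09, p = 0.0817) and were counted as 1 library, called eGFP-NP 1-2. This left 4 MPLA, 4 IL4, 3 IRF5-NP (1, 2 and 4) and 3 eGFP-NP libraries. A further 4 pairs of libraries, MPLA 1 and 4, MPLA 2 and 3, IRF5-NP 1 and 2, and eGFP-NP 3 and 4, were nearly alike although they differed beyond counting noise. A figure legend of the study calls its macrophage samples biologically independent, with a number that no group here has. The labels do not state that these replicates were separate cultures, so p-values measure the spread between these libraries, which may be technical. The macrophage markers Csf1r (832 to 10201 counts) and Adgre1 (1721 to 17744 counts) were high in every sample. The 9 stromal genes of the panel that were listed as markers of fibroblasts, collagens among them, were also high, but unevenly. Their mean log2 CPM was 12.20 to 12.29 in the MPLA libraries, 10.26, 11.11, 4.59 and 9.44 in IL4 1 to 4, 4.16, 4.16 and 10.63 in IRF5-NP 1, 2 and 4, and 4.09, 11.32 and 11.38 in eGFP-NP 1-2, 3 and 4. The 14 macrophage genes had means of 9.51 to 9.62 in MPLA and 10.07 to 10.90 in IL4, and ran the other way from the stromal genes within the nanoparticle groups, with means of 10.65, 10.69 and 8.94 in IRF5-NP and 10.50, 9.14 and 9.08 in eGFP-NP. In such bulk samples, fewer cells of a type and less RNA per cell cannot be told apart. IL4 2 also stood apart, with 5411 counts of Fcgr1 against 131 to 513 in the other IL4 libraries. Whether its label is right could not be settled from the sources used here, so comparisons with IL4 are also given without it.

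Of the 39 members, 20 were above background in all 14 libraries, 15 in some and 4 in none. Background was the mean plus 2 SD of the 8 negative control probes of a library, which was 19.7 to 34.9 counts in a single sample. The 4 members below background throughout were Cd209e, Cd40lg, Cd70 and Sele, and no fold is given for them. Levels are log2 CPM, counts scaled to library size on a log2 scale, which include a prior count, so a level near 4 in a library of usual depth is at background. Levels compare libraries for 1 gene and not genes with each other, since probes differ in efficiency.

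Among the integrins, the chains that pair with Itgb2 took different courses across the libraries. Itgam and Itgax lie near each other on chromosome 7 and encode the closely related CD11b and CD11c. The 250 bases before the annotated start of each are shown because the levels of these closely placed genes took different courses, and those of Icam1 because it is the ligand gene. All are on the + strand of GRCm38.p6 and come from RefSeq: Itgam at chr7:128062390-128062639, Itgax at chr7:128129300-128129549 and Icam1 at chr9:21015690-21015939. Capitals mark TTC and GAA with 4 bases between them in Itgax, starting 127 bases before the start site, and GGAA and TTCC with 1 base between them in Icam1, starting 153 bases before it.
Itgam: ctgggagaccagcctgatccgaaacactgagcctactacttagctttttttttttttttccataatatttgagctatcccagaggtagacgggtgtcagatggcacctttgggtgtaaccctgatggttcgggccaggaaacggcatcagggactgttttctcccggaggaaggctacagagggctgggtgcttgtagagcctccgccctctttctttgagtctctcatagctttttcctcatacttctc
Itgax: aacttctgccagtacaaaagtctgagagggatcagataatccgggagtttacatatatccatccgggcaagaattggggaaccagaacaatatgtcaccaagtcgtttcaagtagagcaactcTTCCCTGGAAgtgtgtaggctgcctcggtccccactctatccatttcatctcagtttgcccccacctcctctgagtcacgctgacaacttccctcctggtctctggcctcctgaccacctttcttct
Icam1: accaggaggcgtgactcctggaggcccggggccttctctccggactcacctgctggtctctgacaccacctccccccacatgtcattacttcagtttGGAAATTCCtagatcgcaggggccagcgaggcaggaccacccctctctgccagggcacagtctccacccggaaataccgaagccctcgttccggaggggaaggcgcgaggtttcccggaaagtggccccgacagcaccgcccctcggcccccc
TTC and GAA with 4 bases between them, the spacing bound by STAT6, reads the same on both strands and was in 5.85% of the 32851 promoter windows of the same length in the annotation. Of the 24 members with a window, it was in 3 (Cd209e, Cd44 and Itgax). GGAA and TTCC with 1 base between them, as in NF-kB sites, was in 0.813% of windows and in 1 member, Icam1, and GAAA and GAAA with 2 bases between them on either strand, as in interferon regulatory factor sites, was in 2.98% and in 0 members. The shares are of single windows, whereas a member counts when any of its windows matches, so these are unlike units. These matches describe the letters of the windows alone.

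Itgax ranged most among the integrins. It was 5.63, 6.47, 6.59 and 5.78 in MPLA 1 to 4, 9.46, 4.33, 11.09 and 9.63 in IL4 1 to 4, 11.49, 11.31 and 4.78 in IRF5-NP 1, 2 and 4, and 11.43, 8.42 and 8.61 in eGFP-NP 1-2, 3 and 4. IL4 2 (26 counts) and IRF5-NP 4 (12 counts, below background) lay under all MPLA libraries, while all other libraries conditioned with IL4 lay above them. Itgam was 11.92, 11.78, 11.64 and 11.80 in MPLA, 9.97, 11.60, 12.41 and 11.59 in IL4, 13.12, 13.04 and 10.07 in IRF5-NP, and 13.21, 10.38 and 10.44 in eGFP-NP. The MPLA libraries fell within the range of each other group. Itgb2, the shared beta chain, was 11.04 to 11.27 in MPLA, 12.19, 11.60, 13.08 and 12.55 in IL4, 13.75, 13.71 and 10.03 in IRF5-NP, and 13.94, 11.44 and 11.57 in eGFP-NP. Only IRF5-NP 4 was below the MPLA libraries.

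Itgal was 8.95, 8.93, 8.69 and 8.92 in MPLA, 5.20, 10.90, 7.08 and 5.11 in IL4, 7.85, 7.92 and 6.89 in IRF5-NP, and 9.22, 6.73 and 6.83 in eGFP-NP. IL4 2, with 2657 counts against 40, 141 and 54 in the other IL4 libraries, was the highest of all 14. Per 100 counts of Itgb2, Itgal stood at 18.9 to 22.9 counts in MPLA, 0.757, 61.6, 1.55 and 0.550 in IL4, 1.66, 1.81 and 11.2 in IRF5-NP, and from 3.69 up to 3.78 in eGFP-NP. Itgam per 100 counts of Itgb2 was 142 to 171 in MPLA, above the 21.6 to 99.9 of IL4, the 62.9 to 103 of IRF5-NP and the 45.5 to 60.3 of eGFP-NP. Itgax per 100 counts of Itgb2 was 2.13 to 4.34 in MPLA, 0.603 in IL4 2 against 13.2 to 25.1 in the other IL4 libraries, 20.8, 19.0 and 2.49 in IRF5-NP, and 17.5, 12.2 and 12.8 in eGFP-NP. These ratios are given as descriptions and were not tested. On this measure eGFP-NP 1-2 lay close to eGFP-NP 3 and 4 for Itgal, although its level of Itgal itself was higher.

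**Figure D1:**
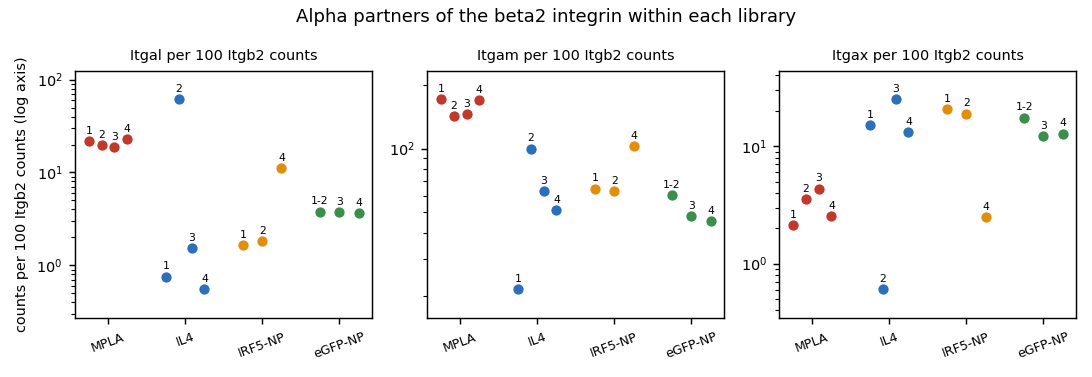
Counts of Itgal, Itgam and Itgax per 100 counts of Itgb2 (vertical axes, log scale) in each of the 14 libraries, by group. MPLA libraries held 142 to 171 Itgam counts per 100 Itgb2 counts, above all other libraries, and IL4 2 stood apart from the other IL4 libraries with 61.6 Itgal counts.

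Itgb7 was 6.10, 6.13, 6.19 and 5.87 in MPLA, 5.79, 8.92, 8.0 and 8.18 in IL4, 7.45, 7.57 and 6.97 in IRF5-NP, and 7.41, 6.13 and 6.46 in eGFP-NP. IL4 1 was the lowest library of all, and the other IL4 libraries the 3 highest. Itga4, its partner, was close to background outside eGFP-NP 1-2, at 4.41 to 4.63 in MPLA, 4.18 to 4.88 in IL4, 5.05, 5.36 and 4.53 in IRF5-NP, and 6.55, 4.94 and 4.48 in eGFP-NP. The matrix-binding chains varied less. Itgb1 was 13.37 to 13.48 in MPLA, 12.80, 12.63, 12.33 and 12.76 in IL4, 12.86, 12.86 and 12.56 in IRF5-NP, and 12.68, 13.19 and 13.22 in eGFP-NP, with MPLA above all other libraries. Itga5 was 9.22 to 9.30 in MPLA, 8.44, 8.35, 8.24 and 8.98 in IL4, 9.0, 8.96 and 9.04 in IRF5-NP, and 8.94, 9.37 and 9.34 in eGFP-NP, where libraries 3 and 4 passed the MPLA range.

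**Figure D2:**
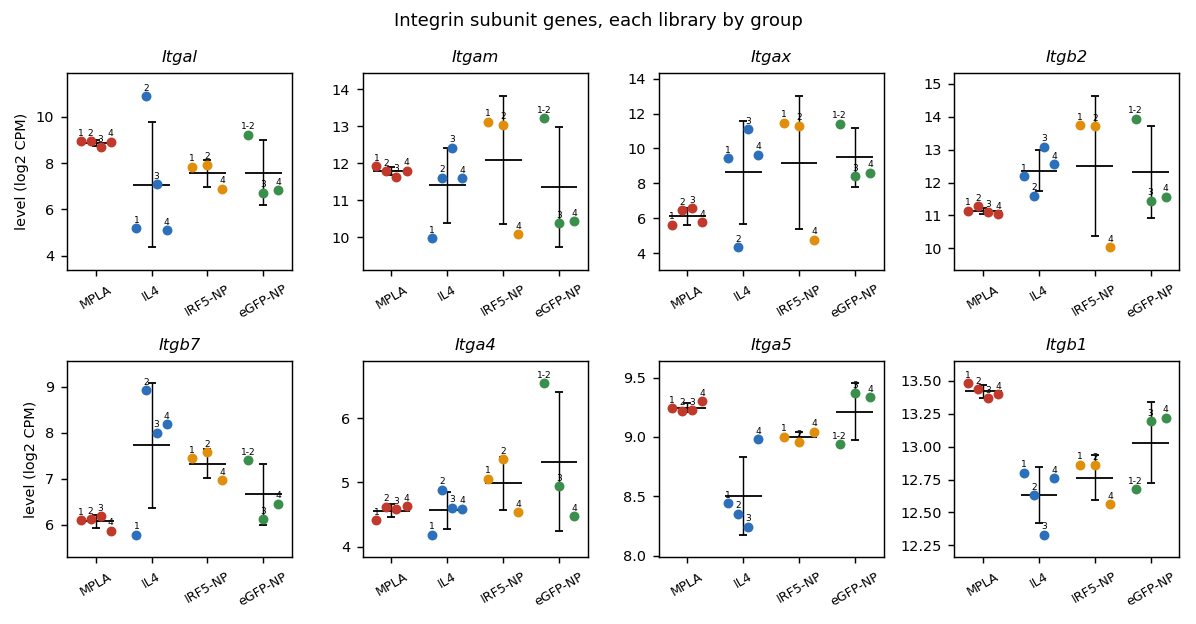
Level of each of the 8 integrins (log2 CPM, vertical axes) in each library of the 4 groups, with numbered points for libraries, horizontal lines for group means and error bars for SD. The MPLA points of Itgax span 5.63 to 6.59, while Itgax spans 4.33 to 11.09 within IL4 and 4.78 to 11.49 within IRF5-NP.

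Among the CD-named genes that act as receptors of macrophages, Cd14, the co-receptor that hands lipopolysaccharide to Toll-like receptor 4, was 12.73, 12.30, 12.20 and 12.66 in MPLA, 9.73, 10.08, 10.48 and 9.49 in IL4, 9.92, 9.89 and 10.98 in IRF5-NP, and 10.45, 8.93 and 8.99 in eGFP-NP. No library of another group reached the MPLA range. The scavenger receptor Cd36 was 10.01 to 10.30 in MPLA, 11.73, 11.95, 14.50 and 11.65 in IL4, 15.18, 15.17 and 10.54 in IRF5-NP, and 15.07, 11.90 and 12.05 in eGFP-NP. All IL4-conditioned libraries were above MPLA. Cd68, a lysosomal glycoprotein of macrophages, was 12.61 to 12.96 in MPLA, 14.05, 12.54, 14.43 and 14.05 in IL4, 15.06, 15.01 and 12.37 in IRF5-NP, and 14.91, 12.99 and 13.04 in eGFP-NP. IL4 2 and IRF5-NP 4 were again the libraries below MPLA. The haemoglobin scavenger receptor Cd163 was at or near background, above it in 1 MPLA, 1 IL4, 2 IRF5-NP and 1 eGFP-NP library.

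Among the activation and costimulation genes, Cd69, an early activation antigen, had 201, 149, 165 and 180 counts in MPLA and 11, 185, 19 and 14 in IL4. It had 12 to 23 counts in IRF5-NP and 14 to 16 in the 4 eGFP-NP samples, all below background. Cd69 was thus above background only in MPLA and in IL4 2. Cd40, the receptor for CD40 ligand, was 6.50 to 6.80 in MPLA, 6.53, 7.97, 6.07 and 5.67 in IL4, 5.81, 5.68 and 5.18 in IRF5-NP, and 5.16, 4.32 and 4.40 in eGFP-NP, where it was above background in 1 of 3 libraries. Cd80, a ligand of CD28, was 7.17 to 7.43 in MPLA, 6.92, 6.75, 6.57 and 7.80 in IL4, 7.95, 7.80 and 7.59 in IRF5-NP, and 8.21, 8.04 and 8.19 in eGFP-NP. The eGFP-NP libraries were the highest of all. Cd274, which encodes PD-L1, was 7.52 to 7.76 in MPLA, 7.58, 10.87, 10.03 and 7.76 in IL4, 9.08, 9.01 and 6.47 in IRF5-NP, and 8.93, 7.96 and 8.19 in eGFP-NP. Cd1d1, which presents lipids to natural killer T cells, was 8.48 to 8.62 in MPLA, 7.77, 8.78, 7.19 and 6.92 in IL4, 7.51, 7.61 and 7.30 in IRF5-NP, and 7.73, 7.66 and 7.59 in eGFP-NP. Its near-identical neighbour Cd1d2 was close to background, and how the probes of the pair share transcripts is not given in the sources used here.

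Of the members better known from T and NK cells, Cd28 was the best measured, at 9.13 to 9.21 in MPLA, 9.47, 7.55, 9.64 and 10.53 in IL4, 10.23, 10.09 and 8.58 in IRF5-NP, and 10.35, 9.10 and 9.14 in eGFP-NP, above background in every library. Cd244 was above background in 13 of 14 libraries, Cd247 in 2 and Cd27 in 1. The panel table held 0 genes of the listed T cell markers. The B cell marker Ms4a1 had 12 to 23 counts and was above background only in IL4 2 (21 counts against 20.3). Cd47, the signal that holds off engulfment by macrophages, varied from 9.99 (IRF5-NP 4) to 11.01 (IL4 2).

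**Figure D3:**
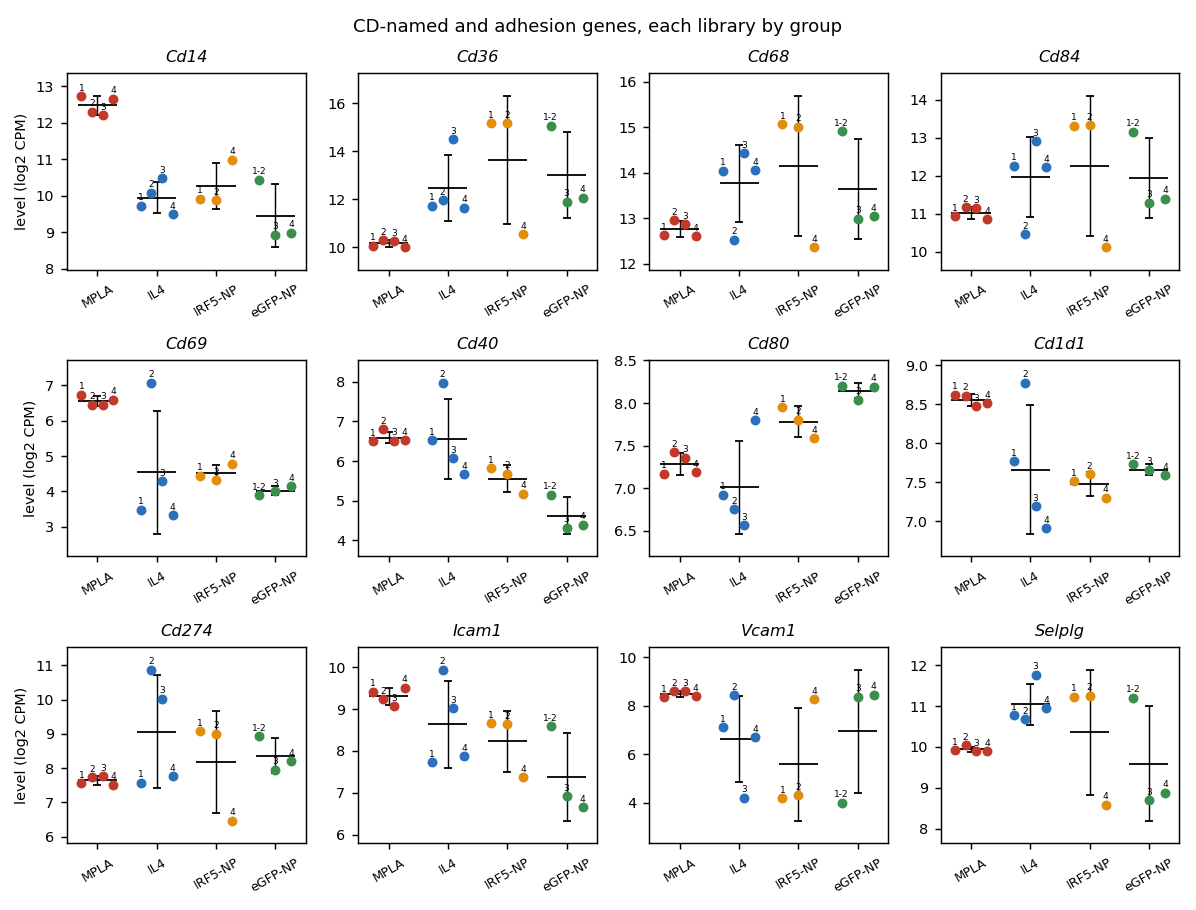
Level (log2 CPM, vertical axes) of 12 CD-named and adhesion members in each library of the 4 groups, with numbered points for libraries, horizontal lines for group means and error bars for SD. Cd14 and Cd69 are highest in MPLA, apart from Cd69 in IL4 2 (7.07), and Cd36 is lowest in MPLA.

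Among the adhesion molecules, Vcam1 was uneven within the IL4, IRF5-NP and eGFP-NP groups. It had 626, 669, 734 and 631 counts in MPLA, 157, 481, 18 and 169 in IL4, 19, 20 and 142 in IRF5-NP, and 13, 20, 338 and 303 in the eGFP-NP samples. The libraries with 13 to 20 counts, all below background, were those in which the mean of the stromal genes was 4.09 to 4.59. With the stromal genes as a covariate, the MPLA minus IL4 difference of Vcam1 on the log2 scale was -0.25, against 1.26 without it. The stromal means of MPLA (12.20 to 12.29) lay above those of every IL4 library. That fit therefore extrapolates and cannot tell group and stromal level apart. Icam1 was 9.06 to 9.51 in MPLA, 7.73, 9.94, 9.01 and 7.87 in IL4, 8.67, 8.63 and 7.38 in IRF5-NP, and 8.59, 6.91 and 6.66 in eGFP-NP. Selplg was 9.90 to 10.04 in MPLA, 10.77, 10.68, 11.77 and 10.95 in IL4, 11.23, 11.26 and 8.58 in IRF5-NP, and 11.21, 8.69 and 8.88 in eGFP-NP. Its selectin partners were low: Selp was above background in 6 of 14 libraries and Sele in 0, and the panel table has no row beginning with Pecam.

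**Figure D4:**
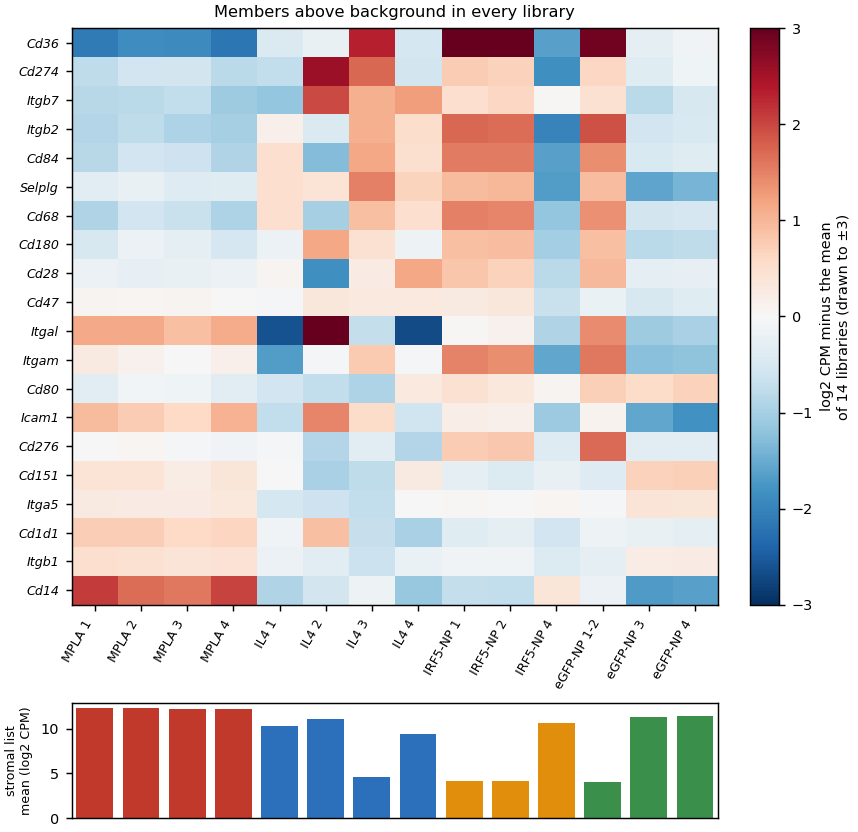
Level of the 20 members above background in every library (rows) in the 14 libraries (columns), as log2 CPM minus the member's mean over the libraries with the colour scale cut at 3 either way, above bars of the mean log2 CPM of the 9 stromal genes. Cd36 is low and Cd14 high in all 4 MPLA libraries, and IRF5-NP 4 and eGFP-NP 3 and 4, with stromal means of 10.63, 11.32 and 11.38, differ in colour from the other libraries of their groups, as for Itgb2 and Cd68.

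The comparison of the MPLA and IL4 standards asked which of these genes part the inflammatory from the suppressive condition. Cd14, Itgb1 and Itga5 were higher in MPLA, and Itgax, Cd36, Itgb7, Itgb2, Selplg and Selp were lower. These 9 of 39 members were called (edgeR quasi-likelihood test, adjusted p under 0.05), beside 26.4% of all 754 genes, 12.2% higher and 14.2% lower. The split of 3 higher and 6 lower was 1 and 9 with housekeeping (beside 24.3% of all genes called), 1 and 10 with upper-quartile (27.9%) and 1 and 14 with median scaling (33.8%). By class, 2 of 8 integrins were higher and 3 lower, 1 of 25 CD-named genes was higher and 1 lower, and 2 of 6 adhesion molecules were lower. The median log2 difference was -0.066 for integrins, -0.14 for CD-named genes and -0.84 for adhesion molecules, beside -0.054 for all genes. The groups did not overlap for 10 members, beside 37.3% of all genes, and 17 had an unadjusted p under 0.05, beside 40.3%. DESeq2 called 15, beside 38.6%.

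Cd14 had the largest increase, 12.47 ± 0.26 log2 CPM (SD, n = 4) in MPLA against 9.95 ± 0.43 (n = 4) in IL4, a log2 difference of 2.53 ± 0.28 (SE; edgeR adjusted p = 0.000702). It passed the test in 20 of 21 alternative analyses, all but the Benjamini-Yekutieli adjustment of the methods' t-test. Itgb1 was higher by 0.79 ± 0.23 (adjusted p = 0.0364) and Itga5 by 0.73 ± 0.23 (0.0465), with groups that did not overlap. The direction of both held in all 21 alternatives, but they passed in 7 and 6 of them. MPLA was also the group with the most stromal RNA, and the part of that RNA in the Itgb1 and Itga5 differences was not tested. In a fit with the stromal genes as a covariate Cd14 was the sole call, beside 11.5% of all genes. The stromal means of MPLA and IL4 did not overlap, so that fit extrapolates and cannot tell the parts apart.

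Among the genes lower in MPLA, Cd36 differed by -2.82 ± 0.69 (adjusted p = 0.022), Itgb2 by -1.29 ± 0.32 (0.0235) and Selplg by -1.14 ± 0.27 (0.0198), with groups that did not overlap. Itgax differed by -3.66 ± 1.06 (0.0364), although IL4 2 lay below every MPLA library. Itgb7 differed by -2.0 ± 0.54 (0.0319), although IL4 1 lay below every MPLA library. Selp, the platelet and endothelial selectin, differed by -1.07 ± 0.30 (0.0331) at 22 to 75 counts, above background in 2 MPLA and 3 IL4 libraries. Itgam (0.20 ± 0.43, adjusted p = 0.761) and Cd68 (-1.12 ± 0.39, 0.0668) did not pass the test. Other markers moved with these members. Of the 9 stromal genes, 2 were higher in MPLA and 0 lower (median 1.70). The groups did not overlap for 8 of them, beside 37.3% of all genes. Of the 14 macrophage genes, 6 were lower in MPLA and 1 higher (median -0.82). Of the 4 dendritic cell genes, 3 were lower, Batf3 by -2.97 ± 0.44 (adjusted p = 0.00275), and their summed counts were 62 to 76 in MPLA and 244 to 416 in IL4. The other 3, Clec9a, Flt3 and Xcr1, were above background in 0 MPLA libraries and 1 IL4 library each. Of the 9 granulocyte genes, 2 were higher, Camp by 4.09 ± 0.42 (0.00062) and S100a8 by 3.63 ± 0.40 (0.000702), and Ly6g was called lower below background in all libraries. Camp was above background in 2 and S100a8 in 1 of the 4 IL4 libraries, so their sizes are set partly against background. The summed counts of the 9 genes were 1132 to 2070 in MPLA and 222 to 732 in IL4. Of the 5 endothelial genes, of which Selp and Sele are members, Flt1 was lower (0.000303), above background in 4 IL4 and 0 MPLA libraries, and Selp was the other gene called. The part of any of these cells in the differences of the members, Cd14 and Selp included, was not tested.

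Itgal and Cd69 turned on a single library. With all libraries, Itgal differed by -0.13 ± 1.18 (adjusted p = 0.944), opposite in sign to the difference of its mean log2 CPM (8.87 ± 0.12 against 7.07 ± 2.71), and Cd69 by 1.17 ± 0.83 (0.322). Without IL4 2, Itgal was higher in MPLA by 2.85 ± 0.52 (0.00523) and Cd69 by 2.98 ± 0.27 (0.000227). The 3 IL4 libraries left had 11, 19 and 14 counts of Cd69, all below background, so its fitted size is set against background and is no measured fold. In that fit 19 members were called, 9 higher and 10 lower, beside 39.1% of all genes, which included the 9 of the full comparison. The 10 added were Itgal, Cd69, Vcam1 (2.04 ± 0.62), Cd1d1 (1.24 ± 0.24), Icam1 (1.02 ± 0.32), Cd84 (-1.45 ± 0.21), Cd68 (-1.39 ± 0.18), Cd99 (-0.81 ± 0.21), and Cd38 (higher) and Cd163 (lower). No size is given for Cd38, with 9, 12 and 8 counts in these IL4 libraries, all below background, or for Cd163, above background in 1 library of each group. With all libraries, where neither was called, Vcam1 turned from 1.26 to -0.25 with the stromal covariate, and Icam1 from 0.43 to -0.0067 with housekeeping and -0.12 with median scaling. In the other direction, leaving out any 1 of the MPLA libraries, or merging the near-identical MPLA pairs, left 1 call, Cd14, beside 9.81% to 14.5% of all genes and 2.65% with the pairs merged.

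**Figure D5:**
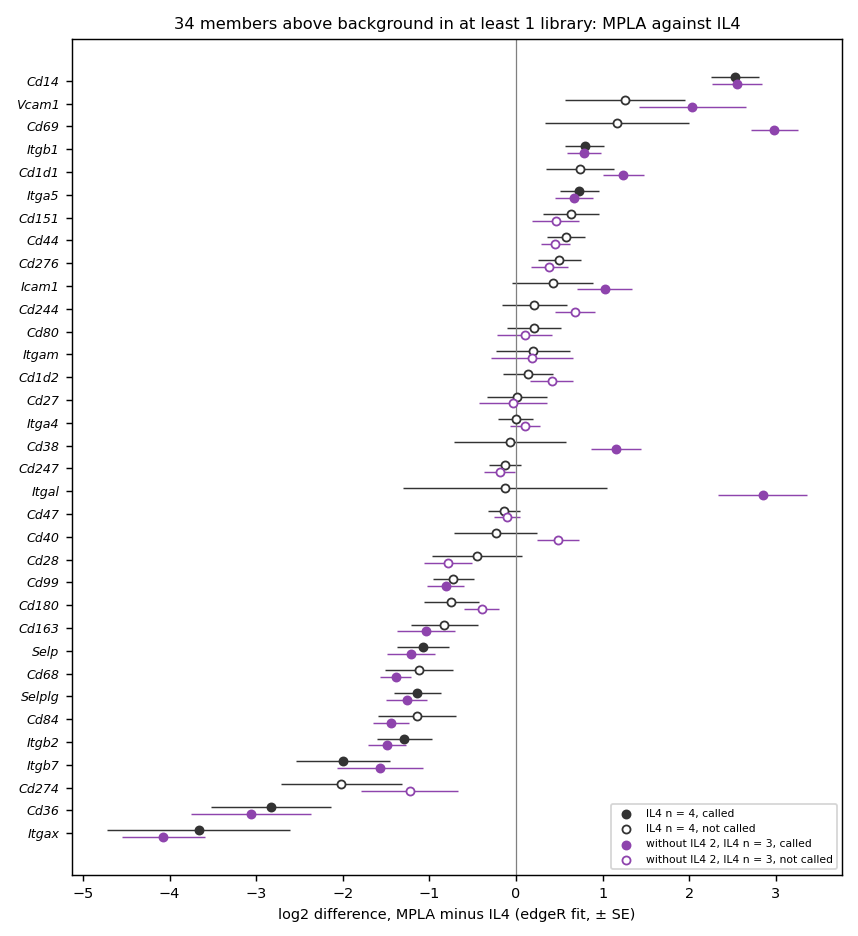
Log2 difference (MPLA minus IL4, horizontal axis) with its SE for 34 members above background in at least 1 library, with all libraries (black) and without IL4 2 (purple), filled where called. Cd14 is 2.53 in the full comparison, while Itgal moves from -0.13 to 2.85 and Cd69 from 1.17 to 2.98 when IL4 2 is left out.

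In the comparison of IRF5-NP with IL4, which asked whether the IRF5 particles moved these genes away from the suppressive state, no member passed the test. The count was 0 of 39 by edgeR, beside 0% of all genes, and 0 members had an unadjusted p under 0.05, by edgeR, beside 7.03% of all genes. DESeq2 called 0 members, beside 2.52% of all genes, and limma and the methods' t-test called 0. The groups overlapped for all 39 members, while 8.75% of all genes had groups apart. Of the 3 members with the smallest p, Cd40, below background in IRF5-NP 4, differed by -1.40 ± 0.63 (edgeR adjusted p = 0.721) and Cd276, the B7-H3 gene, by 0.87 ± 0.42 (0.802), and Cd209e was below background in all libraries. Itgb7 differed by -0.86 ± 0.67, Itgal by -1.54 ± 1.44 and Cd69, above background in IL4 2 alone, by -1.09 ± 1.03. The sign for Itgal is again opposite to that of its mean log2 CPM, 7.55 in IRF5-NP against 7.07. Itgam differed by 0.83 ± 0.80, Cd14 by 0.27 ± 0.46 and Cd68 by 0.51 ± 0.73. IL4 2 and IRF5-NP 4 each lay far from their groups for several of these genes. Without IL4 2, Itgal differed by 1.54, with the opposite sign, Cd69 was below background in every library that remained, and still no member was called.

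In the comparison of eGFP-NP with IL4, which asked what the carrier and its handling did without IRF5, 0 of 39 members were called by edgeR, beside 0% of all genes. With an unadjusted p under 0.05 there were 3 members, beside 11.1% of all genes, and DESeq2 called 2, beside 7.03%. The groups did not overlap for 4 members, beside 11.9% of all genes. The smallest p were those of Cd40 (edgeR adjusted p = 0.285) and Selp (adjusted p = 0.37), which was below background in all eGFP-NP libraries. Cd40 was 4.63 ± 0.46 log2 CPM (SD, n = 3) in eGFP-NP and 6.56 ± 1.00 (n = 4) in IL4, but was below background in eGFP-NP 3 (19 counts) and eGFP-NP 4 (17 counts), so no fitted size is given. DESeq2 called Cd40 lower and Cd80 higher (edgeR 0.92 ± 0.41, adjusted p = 0.43), and the fit over all 4 groups called Cd40. Itgb7 differed by -1.46 ± 0.73, Itgal by -1.08 ± 1.52 and Cd69, again above background in IL4 2 alone, by -1.65 ± 1.03. Mean log2 CPM gave the opposite sign for Itgal (7.59 in eGFP-NP against 7.07) and for Itgam (11.34 against 11.39). Itgam (0.24 ± 0.86), Cd14 (-0.48 ± 0.50) and Cd68 (-0.10 ± 0.68) differed by less than their errors. Without IL4 2, Itgal differed by 2.01, again with the opposite sign, Cd69 was below background in every library that remained, and no member was called.

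The comparison of the 2 cargoes, IRF5-NP with eGFP-NP, also gave 0 of 39 members by edgeR, beside 0% of all genes, and 0 by DESeq2, beside 0.928%. With an unadjusted p under 0.05 there were 3 members by edgeR, beside 5.57% of all genes, namely Cd40, Cd1d2 and Cd209e. Cd40 was higher in IRF5-NP by 0.95 ± 0.35 (edgeR adjusted p = 0.83), at 5.56 ± 0.33 log2 CPM (SD, n = 3) against 4.63 ± 0.46 (n = 3). The lowest IRF5-NP library (5.18) and the highest eGFP-NP library (5.16) were close, and Cd40 was above background in 2 and 1 libraries. Cd1d2 and Cd209e were above background in none of these libraries. The groups did not overlap for 6 members, beside 14.7% of all genes, namely Cd40, Cd80, Cd1d2, Cd209e, Cd69 and Cd70, of which the last 4 were above background in no library of either group. Itgb7 differed by 0.61 ± 0.41 and Itgal by -0.46 ± 0.76, and Cd69 was below background in all libraries of both groups. Itgam differed by 0.54 ± 1.07, Cd14 by 0.83 ± 0.64 and Cd68 by 0.57 ± 0.86. Same-numbered libraries of these groups deviated together, although IRF5-NP 4 correlated best with eGFP-NP 3. When the number was fitted as a block, 0 members were called, beside 0% of all genes. That fit held eGFP-NP 1 and 2 as separate samples and left out eGFP-NP 3.

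The comparison of each nanoparticle group with the MPLA standard asked how far the treated cells were from the inflammatory state. Both use the same MPLA libraries, so the 2 sets of values are not independent. For IRF5-NP, 13 of 39 members were called, 8 higher and 5 lower, beside 24.4% of all genes (11.5% higher, 12.9% lower). The split was 20 higher and 3 lower with upper-quartile scaling (beside 40.3% of all genes called), 27 and 2 with median scaling (60.9%), and 10 and 18 with the stromal covariate (61.9%). The groups did not overlap for 18 members, beside 47.6% of all genes, 24 had an unadjusted p under 0.05, beside 43.4%, and DESeq2 called 25, beside 51.5%. Of the integrins 2 of 8 were higher and 1 lower, of the CD-named genes 6 of 25 were higher and 4 lower, and of the adhesion molecules 0 of 6 were called. For eGFP-NP, 8 of 39 members were called, 4 higher and 4 lower, beside 19.6% of all genes (7.16% higher, 12.5% lower). The split was 9 higher and 2 lower with median scaling (beside 35.4% of all genes called), and 5 and 13 with the stromal covariate (55.8%). The groups did not overlap for 19 members, beside 40.2%, 16 had an unadjusted p under 0.05, beside 34.7%, and DESeq2 called 11, beside 30.2%. Here 1 integrin was higher, and 3 CD-named genes were higher and 4 lower.

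In IRF5-NP against MPLA, Cd36 was higher by 4.47 ± 0.92 (edgeR adjusted p = 0.019), Itgb7 by 1.38 ± 0.15 (0.00566) and Cd80 by 0.59 ± 0.13 (0.0228). Itgb7 was 7.33 ± 0.32 log2 CPM (SD, n = 3) in IRF5-NP and 6.07 ± 0.14 (n = 4) in MPLA, with no overlap. Itgax was higher by 4.68 ± 1.22 (0.0344) and Cd99 by 0.57 ± 0.14 (0.0321), both with overlapping groups, and Cd163 by 1.38 ± 0.30 (0.0228) near background. Cd209e and Cd70 were called higher but were below background everywhere. Lower were Cd69 by -2.04 ± 0.24 (0.00566), Cd14 by -1.98 ± 0.43 (0.0227), Itgal by -1.19 ± 0.22 (0.0138), Cd1d1 by -0.99 ± 0.13 (0.00586) and Cd40 by -0.94 ± 0.16 (0.0129). Cd69 was below background in all IRF5-NP libraries, so its fitted size is no measured fold, and Cd40 was below background in IRF5-NP 4. Itgam (0.81 ± 0.59), Itgb2 (2.07 ± 0.71, adjusted p = 0.0695), Cd68 (1.81 ± 0.54, 0.0512) and Vcam1 (-1.42 ± 1.10) did not pass. Without IRF5-NP 4, the library of lowest depth, 32 members were called, beside 75.1% of all genes, but the IRF5-NP 1 and 2 that then remain are near-identical. Vcam1 was then called lower. Its 19 and 20 counts in IRF5-NP 1 and 2 were below background, so no size is given. Without IRF5-NP 1 or 2, or any 1 MPLA library, 5 to 7 were called, beside 7.29% to 11.9%, and with near-identical pairs merged, or with the number as a block, 0, beside 0%. With the stromal genes as a covariate 28 were called, beside 61.9% of all genes, and the differences of Cd36 (-0.18) and Itgax (-2.41) took the opposite sign. The stromal means did not overlap (12.20 to 12.29 in MPLA, 4.16 to 10.63 in IRF5-NP). That fit therefore extrapolates, and its differences are not sizes freed of stromal RNA. Of the 9 stromal genes 0 were called, with a median of -3.01. The groups did not overlap for all 9, beside 47.6% of all genes. Of the 14 macrophage genes 2 were higher in IRF5-NP and 0 lower, and of the 4 dendritic cell genes 3 were higher, Batf3 by 2.68 ± 0.37 (0.00684), while Clec9a, Flt3 and Xcr1 were below background throughout. Of the 9 granulocyte genes 3 were lower, Camp by -3.05 ± 0.85 (0.0432), S100a8 by -1.90 ± 0.34 (0.0129) and Csf3r (0.0188), and Cxcr2 was called higher below background in all libraries. No size is given for Csf3r, which was below background in all IRF5-NP libraries. Camp was above background in 1 and S100a8 in 2 IRF5-NP libraries, so their sizes are set partly against background. Of the 5 endothelial genes Flt1 was higher (0.0124), above background in 2 IRF5-NP and 0 MPLA libraries. The part of these markers in the member differences was not tested.

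In eGFP-NP against MPLA, Itgax was higher by 3.99 ± 0.82 (edgeR adjusted p = 0.0178), Cd36 by 3.58 ± 0.82 (0.0258) and Cd80 by 0.82 ± 0.13 (0.00693), and Cd209e was called but below background everywhere. Lower were Cd14 by -2.90 ± 0.47 (0.00634), Cd69 by -2.71 ± 0.19 (0.000331), Cd40 (0.00371) and Cd1d1 by -0.94 ± 0.13 (0.00431). No size is given for Cd40, which was below background in eGFP-NP 3 and 4. The groups did not overlap for any of these 8 members. Cd69 was below background in all eGFP-NP libraries, and its fitted size is likewise no measured fold. Itgb7 (0.67 ± 0.31, adjusted p = 0.181), Itgal (-0.84 ± 0.63), Itgam (0.16 ± 0.70) and Cd68 (1.12 ± 0.50) did not pass. The mean log2 CPM of Itgam was lower in eGFP-NP (11.34 against 11.78), opposite to the fitted sign. Without eGFP-NP 1-2, 21 members were called, beside 56.8% of all genes, Itgal (-2.09) and Itgam (-1.35) among the lower ones. The differences of Itgax (2.40) and Cd36 (1.85) were smaller in that fit, and that of Cd14 (-3.51) was larger. However, eGFP-NP 3 and 4, which then remain, are near-identical. Without MPLA 1, 2 or 3, or with the number as a block, 5 were called, beside 9.81% to 11.5%, and with near-identical pairs merged 0, beside 0%. The block fit held eGFP-NP 1 and 2 as separate samples. With the stromal covariate 18 were called, beside 55.8%, in a fit that extrapolates likewise, as the stromal means of these groups did not overlap. Of the 9 stromal genes 0 were called, with a median of -1.28. The groups did not overlap for 8 of them, beside 40.2% of all genes. Of the 14 macrophage genes 1 was higher and 2 lower, and of the 4 dendritic cell genes 2 were higher, Batf3 by 2.65 ± 0.50 (0.0123), with the other 3 again below background. Of the 9 granulocyte genes 3 were lower, Camp by -2.50 ± 0.68 (0.0438), S100a8 by -2.70 ± 0.56 (0.0181) and Csf3r (0.00443). No size is given for Csf3r, which was below background in all eGFP-NP libraries. Camp was above background in 2 and S100a8 in 1 eGFP-NP library, so their sizes are set partly against background. Of the 5 endothelial genes Flt1 was higher (0.00213), above background in 3 eGFP-NP and 0 MPLA libraries. The part of these markers was not tested. In the direct comparison of the nanoparticle groups neither Itgb7 nor Itgal passed.

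A list of genes that signal from or bind to these receptors had 18 genes in the table, none of them members. In MPLA against IL4, Mmp9, a matrix protease, was higher by 1.39 ± 0.35 (edgeR adjusted p = 0.0237), and the Src-family kinase Fyn (-1.09 ± 0.27, 0.0225) and E-cadherin Cdh1 (-1.97 ± 0.61, 0.0458) were lower, 3 of 18 genes beside 26.4% of all genes. Cdh1 was above background in 2 MPLA and 3 IL4 libraries. None of the 18 was called in IRF5-NP against IL4, eGFP-NP against IL4 or IRF5-NP against eGFP-NP. In IRF5-NP against MPLA, 1 of 18 was called beside 24.4% of all genes, Cdh1 (3.18 ± 0.73, 0.0253). Its groups overlapped, and it was above background in 2 IRF5-NP and 2 MPLA libraries. In eGFP-NP against MPLA, Fyn was higher by 1.00 ± 0.25 (0.0331) and Mmp9 lower by -2.11 ± 0.32 (0.00538), 2 of 18 beside 19.6% of all genes.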

How the data were processed

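RNA of the macrophage cultures was hybridised to the nCounter Myeloid Innate Immunity Panel. The authors deposited raw counts per probe, 754 genes besides 6 positive and 8 negative controls, and the values used here are those deposited counts. Per the methods, the authors checked quality with NanoStringQCPro and normalized to housekeeping genes with nSolver, and those normalized values were not used here. Counts of eGFP-NP 1 and 2 were summed, except in the block fits and in 1 alternative that kept them apart. Groups were compared in pairs with edgeR 4.0.16 in R 4.3.3, using TMM scaling, no filter, glmQLFit and glmQLFTest, a two-sided test and Benjamini-Hochberg adjustment over 754 genes, with calls at 0.05. Levels are log2 CPM with a prior count of 2. The procedure was run on simulated counts of independent libraries with the same dispersion for every gene. That setting lacks the near-identical pairs and uneven spreads of these data, so it does not test the calls made here. Alternatives used DESeq2 1.42.0, limma 3.58.1 with a pseudocount of 1, the methods' t-test, other scalings, a filter at background, a fit over 4 groups, a replicate block, a covariate of the stromal genes, and each library left out. Named members were called members with groups that did not overlap and every library of the higher group above background, at most 10 in each direction in MPLA against IL4 and 4 against MPLA, or the 3 smallest p where none was called, and Itgb7, Itgal, Cd69, Itgam, Cd14 and Cd68 throughout. Itgax, Selp, Cd1d1, Cd163, Cd38, Cd84, Cd99, Icam1, Vcam1, Cd40, Cd80, Cd70 and Cd209e were added to some comparisons after their values were seen. Itgb2 was likewise given in IRF5-NP against MPLA outside the rule. Members and lists were chosen with earlier results of these data known. Of the 39 symbols, 38 match a current RefSeq symbol and 1 a synonym. In IRF5-NP against eGFP-NP, same-numbered libraries correlated at 0.823, 0.821 and 0.818 (numbers 1, 2 and 4, deviations from group means over genes), all above 0.1, and the block was fitted, although 1 and 2 are near-identical in both groups and so hardly separate pairs. IRF5-NP 4 correlated best with eGFP-NP 3, so the number was not shown to mark pairs. Block fits used only numbers present in both groups, which left out eGFP-NP 3 here. In the other comparisons the libraries likewise share only a number. Integrin protein tails were not analysed here, and values of 1 member are not reported here.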

Additional observations from a re-analysis of the deposited data

Results flagged for a closer look

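In groups of 4 libraries, the level of 4 members had 1 library far from the other 3 by Dixon's test, out of 48 groups tested. Chance flags about 1 group in 20. Cd36 was 14.50 log2 CPM in IL4 3 against 11.65 to 11.95 in the other IL4 libraries. Within the MPLA group, Cd38 was 4.48 in MPLA 2 against 4.11 to 4.14, Cd40 was 6.80 in MPLA 2 against 6.50 to 6.53, and Itgal was 8.69 in MPLA 3 against 8.92 to 8.95. Those MPLA gaps are under 0.5 on the log2 scale.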

How the results depend on the processing

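The count of called members depended on the analysis in the comparisons with MPLA, and less so in the others. The share of all genes called stands in parentheses. In MPLA against IL4 (9 called, 26.4%) it was 15 with DESeq2 (38.6%), 0 with the methods' t-test after Benjamini-Yekutieli (3.05%), 15 with median scaling (33.8%), 4 in the fit over 4 groups (16.3%), 1 with near-identical pairs merged (2.65%) and 1 with the stromal covariate (11.5%). In IRF5-NP against MPLA (13 called, 24.4%) it was 25 with DESeq2 (51.5%), 1 with Benjamini-Yekutieli (0.928%), 23 with upper-quartile (40.3%) and 29 with median scaling (60.9%), 6 in the fit over 4 groups (18.0%), 0 with pairs merged (0%) and 28 with the covariate (61.9%). In eGFP-NP against MPLA (8 called, 19.6%) it was 4 with Benjamini-Yekutieli (6.1%), 2 in the fit over 4 groups (6.63%), 0 with pairs merged (0%) and 18 with the covariate (55.8%). In eGFP-NP against IL4 (0 called, 0%) it was 2 with DESeq2 (7.03%) and 1 in the fit over 4 groups (2.25%). In IRF5-NP against IL4 and IRF5-NP against eGFP-NP it was 0 under every alternative run, also without IL4 2 and IRF5-NP 4 together, chosen after seeing the data. Leaving out 1 library gave 1 to 19 members in MPLA against IL4 (19 without IL4 2, 39.1%), 5 to 32 in IRF5-NP against MPLA (32 without IRF5-NP 4, 75.1%), 5 to 21 in eGFP-NP against MPLA (21 without eGFP-NP 1-2, 56.8%) and 0 to 0 in the others. With the replicate number as a block it was 1 in MPLA against IL4 (12.6%), 0 in IRF5-NP against MPLA (0%), 5 in eGFP-NP against MPLA (10.7%) and 0 in each of the others. The numbers were not shown to pair the libraries in any comparison. These block fits kept eGFP-NP 1 and 2 as separate samples. DESeq2 gave no adjusted p for 3 members in MPLA against IL4, 3 in IRF5-NP against IL4, 4 in eGFP-NP against IL4, 13 in IRF5-NP against eGFP-NP and 4 in eGFP-NP against MPLA, and these are not counted as lost calls. In the comparisons with MPLA the stromal means of the groups did not overlap, so the covariate fits there extrapolate. The cause of these changes was not tested.

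Another scaling moved the share of calls higher among all genes. In MPLA against IL4 it was 46.2% with TMM, 27.3% with housekeeping, 34.3% with upper-quartile and 20.4% with median scaling, which shift the median of all genes by -0.26, -0.20 and -0.55. In IRF5-NP against MPLA it was 47.3%, then 61.8%, 81.6% and 90.4% (shifts of 0.14, 0.45 and 0.91), and in eGFP-NP against MPLA 36.5%, then 63.2% with upper-quartile and 83.1% with median scaling (0.31 and 0.67).

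Signs reversed in 75 of 1526 checks of single genes. In MPLA against IL4, Itgal was 1.58 with limma and the t-test (either adjustment), 2.11 with the block and -0.57 to 2.85 leaving out 1 library (2.85 without IL4 2). Itgam was -0.11 with housekeeping, -0.025 with upper-quartile and -0.51 with median scaling, -0.033 with the filter and -0.091 to 0.57 leaving out 1 library. Cd38 was 0.22 with limma and the t-test, 0.42 with the block and -0.44 to 1.15 leaving out 1 library. Icam1 was -0.0067 with housekeeping and -0.12 with median scaling, and Vcam1 was -0.25 with the stromal covariate. In IRF5-NP against IL4, Itgal was 0.49 with limma and the t-test, 0.72 with the block, -1.93 to 1.54 leaving out 1 library and 1.73 without IL4 2 and IRF5-NP 4. Cd69 was -1.42 to 0.83 leaving out 1 library and 0.61 without both, Cd14 was -0.22 to 0.47 and -0.14, and with the covariate Itgam was -0.40 and Cd68 -0.61. In eGFP-NP against IL4, Itgal was 0.21 with limma and the t-test, 0.71 with the block and -2.29 to 2.01 leaving out 1 library, and Cd69 was -1.99 to 0.29 leaving out 1 library. Without IL4 2, these Cd69 values compare libraries that are all below background. Itgam was -0.37 with limma and the t-test, -0.34 with the covariate and -1.22 to 0.77 leaving out 1 library. Cd68 was 0.079 with DESeq2 and RLE scaling, 0.18 with upper-quartile and 0.24 with median scaling, 0.029 in the fit over 4 groups, 0.20 with pairs merged or with eGFP-NP 1 and 2 apart, 0.023 with the block and -0.90 to 0.25 leaving out 1 library. In IRF5-NP against eGFP-NP, Itgal was 0.28 with limma and the t-test and -0.89 to 0.85 leaving out 1 library. There Itgam was -0.13 with pairs merged, -0.27 with the block and -0.23 with the covariate, and Cd68 was -0.20 with the block and -0.23 with the covariate. In IRF5-NP against MPLA, the covariate gave -0.18 for Cd36, -1.95 for Itgam, -0.57 for Cd68 and -2.41 for Itgax, and median scaling 0.035 for Cd40. In eGFP-NP against MPLA, Itgal was 0.13 with median scaling, Itgam was -0.52 with limma and the t-test, -0.028 with the block, -1.78 with the covariate and -1.35 to 0.71 leaving out 1 library, and Cd68 was -0.041 with the covariate. Depth limits the members near background, most in IRF5-NP 4.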
